A study of Mus musculus with 4 samples.

Results

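Bidirectional promoters shared by pairs of protein-coding genes were examined in open chromatin maps of mouse keratinocytes. A pair was taken when its genes lay head to head on opposite strands of mm10 with transcription start sites (TSSs) at most 1000 bp apart. The TSS was the 5′ end of the gene over its protein-coding transcripts in the GENCODE basic annotation. The annotation held 778 such pairs, made up of 1541 of 21851 coding genes (7.05%), and their TSSs lay a median of 144 bp apart. Peaks of all 4 libraries were merged wherever they overlapped by 1 bp, and a merged region counted as a bidirectional promoter when it touched the stretch between the TSSs or the 250 bp on either side. This gave 730 bidirectional promoters among 82641 merged regions. They served 731 pairs, 47 pairs had none, 13 pairs had 2, and 14 regions served more than 1 pair.

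A bidirectional promoter is a short stretch of DNA from which neighbouring genes are transcribed in opposite directions. Such promoters are common in mammals, usually lie in CpG islands, mostly lack a TATA box, and are known for housekeeping genes such as those of DNA repair, mitochondria, chaperones and histones. NF-Y, which binds the CCAAT box, and ETS family factors are among the transcription factors known to act on them.

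The assay was ATAC-seq, in which the Tn5 transposase cuts and tags accessible DNA. Keratinocytes were taken from skin of mice that had received a cream with 5% imiquimod (Aldara) daily for 8 days, a treatment that gives psoriasis-like inflammation. Libraries came from 2 wild type (WT) and 2 Mapk8-KO samples, named here by genotype and by the number in their labels. Where 4 values follow each other, they stand in the order WT 1, WT 2, Mapk8-KO 1, Mapk8-KO 2. Mapk8 encodes the stress kinase JNK1, which phosphorylates the AP-1 factor Jun. Per the study's methods, mice were female and 8 to 12 weeks old on a C57BL/6 background, littermates served as controls, floxed Mapk8 was removed by a Cre driven from the keratin 14 promoter, which acts in basal keratinocytes of epidermis and hair follicle and in other stratified epithelia, and cells were sorted as EpCam+ and CD49f high. The comparison asked how loss of JNK1 in these cells changed accessibility. No source states whether a library came from 1 mouse or from several, so p-values measure only the spread between these samples.

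Accessibility was read as summit pileup, the number of fragments covering the highest point of a peak, recovered as a whole number from the deposited values. Read totals are unknown from peak lists. With WT 1 set to 1, the relative depth of WT 2 was 0.691 and that of the Mapk8-KO libraries 1.12 and 0.644, so replicate 2 was the shallower library of each genotype. Promoters of 9 of 12 keratinocyte markers were called in all 4 libraries and all 12 in at least 1, whereas 0 of 8 immune, 3 of 6 endothelial, 1 of 6 fibroblast and 1 of 6 melanocyte marker promoters were called in any. Tek and Flt1 (endothelial), Pdgfra (fibroblast) and Mitf (melanocyte) were called in all 4 libraries, with up to 74 fragments at the endothelial promoters, 58 at Pdgfra and 148 at Mitf, while Pecam1, Cdh5, Emcn, Col1a1, Col1a2, Col3a1, Dcn, Lum, Kit, Pmel, Dct, Tyrp1 and Mlana had no peak there. The part of other cell types in the results was not tested. The Mapk8 promoter was called in every library, at 96, 73, 109 and 90 fragments, which says nothing about deleted exons.

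The DNA between the TSSs of selected pairs is printed to show examples of motifs that are compared below. The shares of regions with a motif given below were counted around the strongest summit. That summit can lie outside the printed stretch, as at Brca1/Nbr1. The letters are the plus strand of mm10, 5′ to 3′, from RefSeq GRCm38.p6, starting at the base after the TSS of the first-named gene, which is on the minus strand, and ending at the base before the TSS of the second. Each stretch thus lies upstream of the annotated coding transcripts of both genes. Capitals mark CCAAT or its reverse complement ATTGG (bound by NF-Y) and CCGGAAG or its reverse complement CTTCCGG (bound by ETS factors). The first lies at chr7:28741821-28742001 between the mitochondrial ribosomal protein gene Mrps12 and the mitochondrial seryl-tRNA ligase gene Sars2, and holds 4 CCAAT boxes. The next lies at chr13:21810198-21810464 between the histone genes Hist1h2bq and Hist1h2ao, with 3. Another, at chr11:101551880-101552148, lies between the DNA repair gene Brca1 and the autophagy receptor gene Nbr1, with 1. The stretch at chr7:141194006-141194156 lies between Hras, which encodes a GTPase downstream of growth factor receptors, and Lrrc56, with 1 CCAAT box. The stretch at chr1:55088025-55088131 separates the mitochondrial chaperonin genes Hspd1 and Hspe1 and holds 2 overlapping ETS matches, 1 on each strand.
Mrps12/Sars2: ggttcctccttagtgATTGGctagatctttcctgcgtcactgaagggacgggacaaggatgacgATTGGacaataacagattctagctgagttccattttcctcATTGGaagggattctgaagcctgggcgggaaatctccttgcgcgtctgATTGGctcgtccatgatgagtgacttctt
Hist1h2bq/Hist1h2ao: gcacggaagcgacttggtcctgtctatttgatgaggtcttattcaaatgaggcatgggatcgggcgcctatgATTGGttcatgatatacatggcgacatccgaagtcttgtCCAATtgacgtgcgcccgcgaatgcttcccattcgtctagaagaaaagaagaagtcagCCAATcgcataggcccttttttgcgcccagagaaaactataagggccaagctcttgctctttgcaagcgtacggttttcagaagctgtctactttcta
Brca1/Nbr1: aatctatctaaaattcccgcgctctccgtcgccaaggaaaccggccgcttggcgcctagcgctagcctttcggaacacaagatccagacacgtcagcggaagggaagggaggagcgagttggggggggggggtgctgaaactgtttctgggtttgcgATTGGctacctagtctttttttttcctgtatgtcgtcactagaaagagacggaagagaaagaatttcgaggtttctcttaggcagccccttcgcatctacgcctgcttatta
Hras/Lrrc56: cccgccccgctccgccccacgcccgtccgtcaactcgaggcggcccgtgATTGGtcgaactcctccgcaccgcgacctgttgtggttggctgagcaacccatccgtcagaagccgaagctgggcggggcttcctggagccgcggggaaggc
Hspd1/Hspe1: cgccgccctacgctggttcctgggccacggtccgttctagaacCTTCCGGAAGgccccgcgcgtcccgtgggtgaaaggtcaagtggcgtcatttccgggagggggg

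Bidirectional promoters were open in nearly every library. Of 730 members, 724, 711, 725 and 711 were called in the 4 libraries, and 699 (95.8%, Wilson 95% interval 94.0 to 97.0%) were called in all 4, against 48.6% of all merged regions. The nearest comparison was with unidirectional promoters, the merged regions within 250 bp of the 5′ end of a coding gene that served no pair. Because 672 members were CpG-rich (at least 50% GC and an observed to expected CpG ratio of at least 0.6 in the 500 bp around the strongest summit), the CpG-rich unidirectional promoters were used. Of these, 7225 of 8194 were called in all 4 (88.2%), 7.58 percentage points fewer (95% half-width 1.62). These intervals cover counting error only, and a region entered either set by having a peak in at least 1 library.

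Counting from genes avoids that condition. Among genes of pairs with a CpG-rich 5′ end, 1262 of 1327 (95.1%) had a region within 250 bp called in all 4 libraries, against 7518 of 9495 (79.2%) of the other genes with a CpG-rich 5′ end, a difference of 15.9 points with a half-width of 1.42. With a CpG-poor 5′ end the shares were 116 of 214 (54.2%) and 1788 of 10815 (16.5%), 37.7 points apart with a half-width of 6.71. Where TSSs lie close together, a single region can cover both ends, so the genes of a pair are not independent. By library, 93.2, 92.0, 93.4 and 92.0% of pairs had a called region. The mean was 92.6 ± 0.818% in WT and 92.7 ± 1.000% in Mapk8-KO (SD, n = 2 each), and the difference of 0.129 points was smaller than the spread between replicates (two-sided exact permutation p = 1, where 0.33 is the smallest that 2 against 2 allows).

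The level of accessibility was also higher than at CpG-rich unidirectional promoters. Among regions called in all 4 libraries, the median pileup of members was 69, 50, 80 and 52 fragments. For CpG-rich unidirectional promoters it was 58, 42, 69 and 44, and for all regions 49, 34, 54 and 30. Members stood above both sets in each library, and the deeper library of each genotype had the higher median. On the log2 scale, the members' median exceeded that of CpG-rich unidirectional promoters by 0.25, 0.25, 0.21 and 0.24, in the same direction in 4 of 4 libraries. The excess was 0.25 ± 0.00070 in WT and 0.23 ± 0.020 in Mapk8-KO (SD, n = 2 each), a difference of −0.024 (two-sided exact permutation p = 0.33, the smallest possible). The sign of that small difference changed to 0.0058 without Mapk8-KO 1 and to 0.0010 against all unidirectional promoters.

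**Figure D1:**
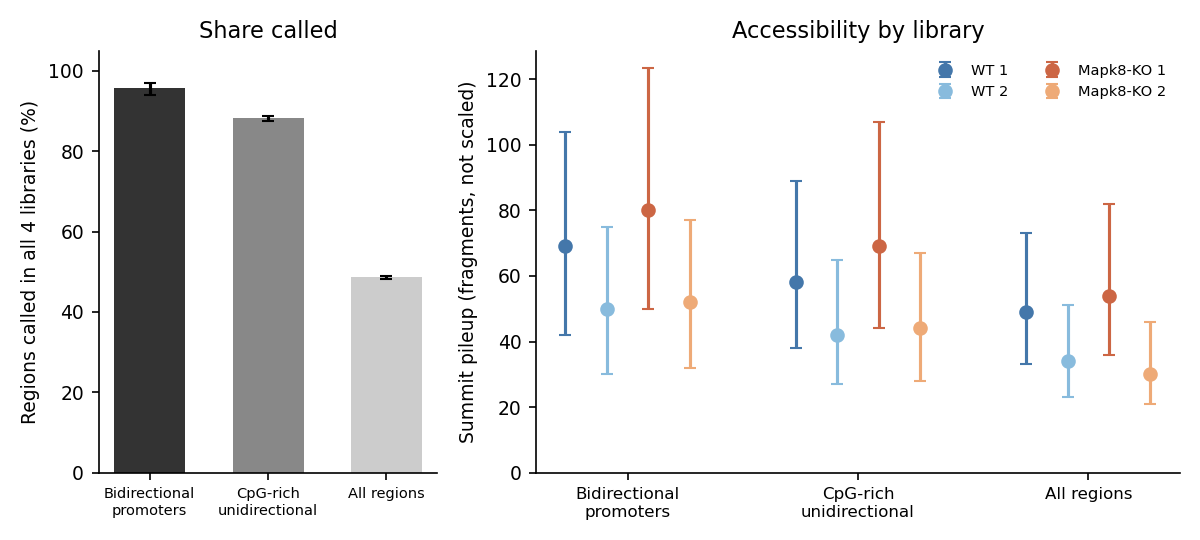
Left, the share of regions called in all 4 libraries (percent, bars, with Wilson 95% intervals) for bidirectional promoters, CpG-rich unidirectional promoters and all regions; right, the summit pileup in fragments, not scaled for depth, of the regions called in all 4 libraries, by library (points, medians; bars, quartiles). Bidirectional promoters had the highest share, 95.8%, and the highest median in each library, from 50 to 80 fragments.

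Single members covered a wide range. With pileups scaled to the depth of WT 1 and averaged over libraries, the lowest member had 14.6 fragments, the lower quartile was 44.7, the median 74.0, the upper quartile 111 and the highest 387. The highest was the promoter of Aasdhppt, whose product attaches phosphopantetheine to carrier proteins, and Kbtbd3, at 336, 270, 464 and 262 fragments. Next came Dcaf6/Mpc2, which holds a subunit gene of the mitochondrial pyruvate carrier, at 277, 235, 308 and 187, and Tmtc3/Cep290, with a gene of the primary cilium, at 261, 197, 292 and 192. At the low end stood Zwilch/Rpl4, a kinetochore gene with a ribosomal protein gene, at 11, 9, 16 and 13 fragments. Tmem176b/Tmem176a had 13, 10, 20 and 15, and Oxld1/Ccdc137 had 22, 11, 20 and 12. The 3 leading members were the highest in each of the 4 libraries.

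The distance between the TSSs went with both the level and the place of the signal. Of the 778 pairs, 286 had TSSs 1 to 100 bp apart, 271 had them 101 to 250 bp apart, 134 lay at 251 to 500 bp and 87 at 501 to 1000 bp. The median scaled pileup was 61.3 fragments in the closest class, 78.8 and 97.5 in the next and 60.6 in the widest, so it was highest at 251 to 500 bp. The share of pairs open in all 4 libraries was 91.3%, 91.5% and 95.5% in the first classes and 80.5% (Wilson 95% interval 70.9 to 87.4%) in the widest. Merged widths had medians of 887, 945.5, 994 and 908 bp, and the median over all members was 932.5 bp against 809 bp at CpG-rich unidirectional promoters. Across the 699 members called in all 4 libraries, Spearman's rho between distance and scaled pileup was 0.21, given as a description since regions share libraries and base composition.

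By the median, summits lay nearer to a TSS than to the middle of the pair. The median distance of the summit from the midpoint between the TSSs was 74, 69.5, 68 and 66 bp. From the nearer TSS it was 55, 52, 55 and 53 bp. The summit was between the TSSs in 51.6% and 54.2% of members in the WT libraries and in 53.1% and 56.4% in the Mapk8-KO libraries. By class, the strongest summit lay between the TSSs in 27.3% of members at up to 100 bp, 65.2% at 101 to 250 bp, 82.0% at 251 to 500 bp and 55.3% beyond. A wider stretch has more room for a summit, yet the share was lower again in the widest class. There, the median summit was 340 bp from the midpoint. The peak at a member was a median of 861, 736, 840 and 737 bp wide. The deeper library of each genotype had the wider peaks, and the mean was 798.5 ± 88.4 bp in WT and 788.5 ± 72.8 bp in Mapk8-KO (SD, n = 2 each; two-sided exact permutation p = 1). The difference of −10 bp became 52.5 bp without WT 1 and 44 bp without Mapk8-KO 2.

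**Figure D2:**
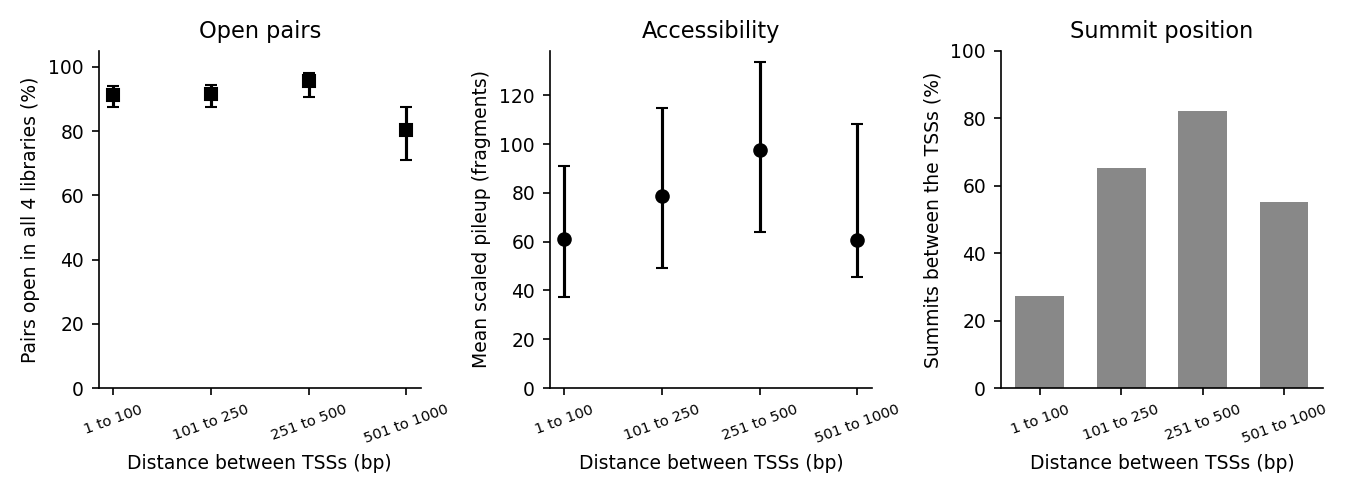
By distance between the TSSs in bp, the share of pairs open in all 4 libraries (squares, percent, with Wilson 95% intervals), the mean scaled pileup in fragments of members called in all 4 (points, medians; bars, quartiles) and the share of members whose strongest summit lay between the TSSs (bars, percent). Pileup and summit share were highest at 251 to 500 bp, at 97.5 fragments and 82.0%.

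In 13 pairs the signal was split into 2 separate regions. Examples with both regions in all 4 libraries were Zfyve26/Rad51b, where Rad51b acts in homologous recombination, and Smim7/Tmem38a. At Zfyve26/Rad51b the TSSs lay 978 bp apart and the regions were separated by 623 bp, with 61, 35, 67 and 37 fragments on the Zfyve26 side and 32, 21, 36 and 28 on the Rad51b side. At Smim7/Tmem38a the left region had 124, 87, 134 and 97 fragments and the right region 41, 28, 45 and 29. The left region was higher in every library at both pairs, which were chosen after their values were seen. Of the 6 pairs with both regions in all 4 libraries, the left region was higher in every library at 3, the right region at 1 (Sart3/Iscu), and neither at 2.

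The 47 pairs with no region in any library held both tissue-restricted and broadly used genes. The 8 with the closest TSSs were Plcd3/Acbd4, 9430097D07Rik/Pip5kl1, Best1/Rab3il1, Glb1l/Stk16, Trim46/Krtcap2, Slc30a3/Dnajc5g, Apex2/Pfkfb1 and Il11/Tmem190, at 24 to 78 bp. Best1 encodes a chloride channel of the retinal pigment epithelium and Slc30a3 the zinc transporter of synaptic vesicles, whereas Apex2 encodes a DNA repair endonuclease and Krtcap2 a subunit of the oligosaccharyltransferase. The nearest peak lay 8373 bp from Best1/Rab3il1, 12526 bp from Slc30a3/Dnajc5g, 1178 bp from Apex2/Pfkfb1 and 320 bp from Trim46/Krtcap2. A pair without a region can thus have a peak close by, just outside the 250 bp limit. Others, chosen after the list was seen, were Ccnt1/4930415O20Rik, with the cyclin T1 gene of transcription elongation, Col4a4/Col4a3, which encode collagen IV chains of the glomerular basement membrane, Kirrel2/Nphs1 with the nephrin gene of kidney podocytes, Pecam1/Milr1 with the endothelial adhesion gene Pecam1, Hist1h2ba/Hist1h2aa, testis histone genes, and Smc1b/Ribc2 with a meiotic cohesin gene. The nearest peak lay 54645 bp from Col4a4/Col4a3, 3474 bp from Kirrel2/Nphs1 and 170222 bp from Hist1h2ba/Hist1h2aa. The imprinted pairs Sgce/Peg10 and Peg3/Usp29 also had no region within the 250 bp limit, with the nearest peaks at 670 and 694 bp. Over all 47 pairs the nearest peak was a median of 8597 bp away, within 1 kb for 6 pairs and beyond 20 kb for 17. On chromosome X, 5 of 22 pairs had no region. A further 24 pairs were open in 1 to 3 libraries.

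Some motifs near the summit differed in frequency from CpG-rich unidirectional promoters. All members were used, of which 672 were CpG-rich, and the sets were not matched for GC content. Its median was 62.8% in members and 65.2% in CpG-rich unidirectional promoters. Within 150 bp of the strongest summit and on both strands, CCAAT was found in 46.8% of the 730 members and in 35.5% of CpG-rich unidirectional promoters, 11.4 percentage points apart (95% half-width 3.77). The ETS motif CCGGAAG was found in 28.5% and 18.9%, 9.63 points apart (half-width 3.38). The NRF1 motif CGCATGCG was at 5.89% and 3.94%, and TCTCGCGA, bound by ZBTB33, at 4.11% and 2.53%. These differences of 1.95 and 1.58 points were just beyond their half-widths of 1.76 and 1.48. For YY1 (ATGGCGGC), CREB (TGACGTCA), the GC box (GGGGCGGG) and the TATA box (TATAAA) the differences were −0.377, 0.701, −2.99 and 0.328 points, within half-widths of 1.83, 1.56, 3.66 and 1.40. The AP-1 motif TGAGTCA, to which Jun and Fos bind, was found in 2.60% of members, 2.83% of CpG-rich unidirectional promoters and 25.9% of all merged regions.

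With a window of 50 bp the excess of CCAAT was 7.06 points and that of ETS 4.15, and with 250 bp it was 9.39 and 11.2, in the same direction. The GC box was 3.97 points lower in members at 50 bp (half-width 2.74) and 4.41 points lower at 250 bp (half-width 3.75). At 50 bp the YY1 motif was 1.40 points lower (half-width 0.674) and the TATA box 0.626 points lower (half-width 0.513), while the NRF1 and ZBTB33 differences were 0.830 and 0.128, within half-widths of 1.16 and 0.919.

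**Figure D3:**
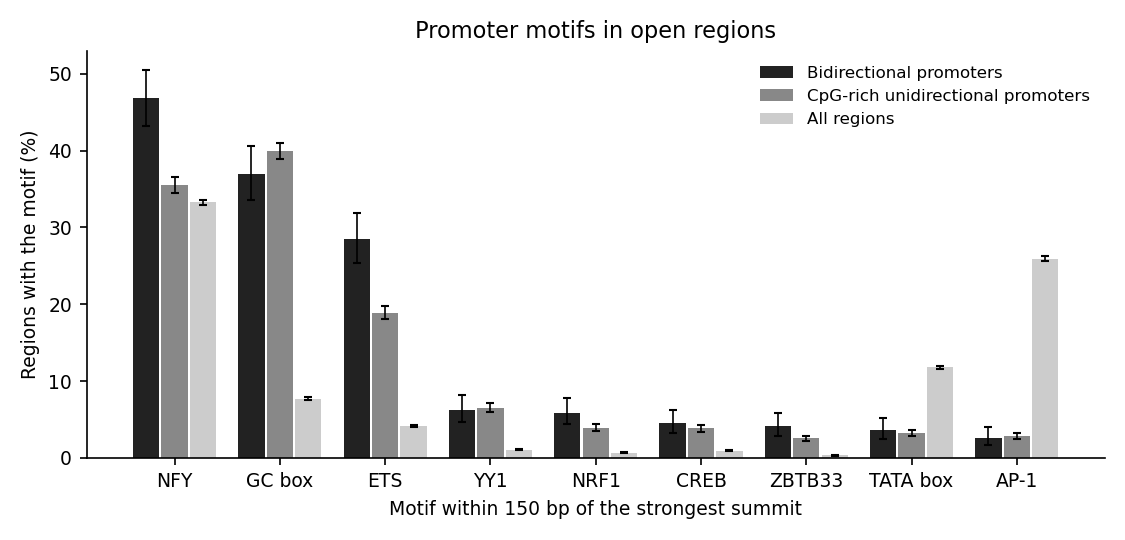
The share of regions with each motif within 150 bp of the strongest summit (percent, bars, with Wilson 95% intervals) in bidirectional promoters, CpG-rich unidirectional promoters and all merged regions. CCAAT (NFY) and ETS motifs were more frequent in bidirectional promoters, at 46.8% and 28.5%, and the AP-1 motif was rare in both promoter sets.

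CCAAT boxes were concentrated between the TSSs. In the 154433 bp between the TSSs of pairs with a region there were 594 matches, 3.85 per kb, against 0.868 per kb in the 250 bp downstream of each TSS of these pairs. Upstream of CpG-rich unidirectional TSSs with a region the density was 2.58 per kb in the first 150 bp and 2.13 in 250 bp. The GC content of these stretches was 60.1%, 62.6%, 65.1% and 61.7%. The ETS motif had 0.900 matches per kb between the TSSs and 0.638 downstream. Upstream of CpG-rich unidirectional TSSs it had 0.834 per kb in 150 bp and 0.595 in 250 bp. The GC box had 2.10 matches per kb between the TSSs, against 2.84 in those 150 bp and 2.02 in those 250 bp. The direction of its difference thus depended on the window. Of 729 stretches between TSSs, 295 (40.5%) held a CCAAT box, which read CCAAT on the plus strand only in 99, ATTGG only in 115 and both in 81. The motif faced either gene of a pair about as often.

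Members with a CCAAT box were also the more accessible ones. The 337 members with the motif and called in all 4 libraries had median pileups of 86, 61, 98 and 64 fragments. The 362 without it had 55, 41.5, 64 and 40.5. The medians differed by 0.64, 0.56, 0.61 and 0.66 on the log2 scale, in the same direction in 4 of 4 libraries. Among CpG-rich unidirectional promoters the same difference was 0.31, 0.34, 0.29 and 0.34, smaller in each library. For the ETS motif it was −0.097, 0.084, 0.036 and 0.028 among members, with no common direction. Members with CCAAT had a lower GC content, a median of 61.6% against 64.5%, so levels were read within classes of GC content. Below 55% GC the median scaled pileup was 86.0 fragments with the motif and 48.1 without, at 55 to 60% 89.3 and 57.7, at 60 to 65% 90.8 and 63.2, and at 65 to 80% 94.4 and 60.9. Bend6/Dst, with 82.4% GC, lay outside these classes. The motif classes and GC classes were compared after the values were seen, and no test was made across regions.

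Members were then grouped by the known functions of their genes. Among the textbook pairs, 8 of 9 members were called in all 4 libraries. The highest were Mcm4/Prkdc, which join a subunit of the replicative helicase with the catalytic subunit of DNA-dependent protein kinase, at 193, 111, 195 and 123 fragments. Atm/Npat, the DNA damage kinase gene with an activator of histone transcription, had 148, 118, 174 and 105. Gart/Son, a purine synthesis enzyme with a splicing cofactor, had 103, 60, 94 and 81. At each of these 3 promoters the genotypes overlapped once depth was scaled. Hspd1/Hspe1 had 77, 65, 101 and 65 fragments, Brca1/Nbr1 64, 42, 65 and 45, Mrps12/Sars2 51, 29, 58 and 45, Rad51c/Tex14 48, 33, 69 and 35, and Emc8/Cox4i1, with a subunit of cytochrome oxidase, 35, 21, 31 and 24. After scaling, both Mapk8-KO libraries were above both WT libraries at Mrps12/Sars2 (log2 difference 0.38 ± 0.23 SE, limma adjusted p = 0.589) and Rad51c/Tex14. The same order held at 31.9% of all members and 20.3% of all regions called in all 4 libraries. At the other textbook pairs called in all 4 the genotypes overlapped. The lowest was Emc3/Fancd2, with the Fanconi anaemia gene Fancd2, with 18 fragments in WT 1, no call in WT 2, and 23 and 16 fragments in the Mapk8-KO libraries.

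Replication-dependent histone genes, transcribed in S phase, were the most often arranged head to head among the functional lists, with 27 of 68 genes in pairs (39.7%, against 7.05% of all coding genes). All 14 members of this list were called in all 4 libraries, and all 14 had a CCAAT box within 150 bp of the summit, whereas 0 had an ETS motif. Their median scaled pileup was 115 fragments, against 74.0 over all members. Hist1h2bq/Hist1h2ao had 157, 108, 182 and 100 fragments, Hist1h2ap/Hist1h2br 165, 97, 182 and 98, and Hist1h2ag/Hist1h2bj 127, 88, 136 and 71. These genes are near-identical copies, and the authors dropped reads that fit several places, so their pileups are uncertain. The exception in openness was the testis pair Hist1h2ba/Hist1h2aa, which had no region.

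Genes of DNA replication and repair had 38 members, 37 of them open in all 4 libraries, with a median of 99.3 fragments. Among the leading members was Rpa3/Umad1, with a subunit of the single-strand DNA binding complex, at 203, 152, 244 and 167. CCAAT was found in 24 of the 38 and ETS in 15. Genes of mitochondrial respiration, import and translation had 51 members, 49 open in all 4, with a median of 73.6 fragments, led by Ndufa5/Asb15 with a subunit of complex I, at 131, 106, 186 and 125. Here CCAAT was found in 19 and ETS in 17. Cell division genes had 38 members, all open in 4 libraries, at a median of 75.1. Splicing and RNA processing genes had 44, of which 42 were open in all 4, at 83.7, led by Mtrex/Dhx29 with the exosome helicase gene at 149, 104, 193 and 109. Translation genes had the lowest median among the lists with more than 10 members, 49.4 fragments over 21 of 22 members open in all 4, although Rpl15/Nkiras1 stood at 143, 80, 204 and 119. CCAAT was found in 4 of these 22 and ETS in 9.

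Chaperone genes had 18 members with a median of 83.2 fragments, led by Hspa14/Cdnf at 220, 159, 266 and 154 and Hsp90b1/Ttc41, with the chaperone GRP94 of the endoplasmic reticulum, at 196, 132, 193 and 164. Proteasome and ubiquitin genes had 24 members with a median of 85.5, among them Usp5/Cdca3 at 165, 94, 154 and 103. Of 71 genes of JNK, AP-1 and EGFR signalling, 4 lay in pairs. Dusp10, which encodes a phosphatase of JNK and p38, shared a member with 1700056E22Rik at 200, 161, 239 and 177 fragments. Hras/Lrrc56 had 88, 66, 79 and 81, Cks1b/Shc1, with the gene of an adaptor of the EGF receptor, 47, 46, 59 and 51, and Pcnx3/Map3k11, with the gene of the mixed-lineage kinase MLK3 upstream of JNK, 40, 39, 45 and 43. CCAAT boxes lay near the summit of 4 of these 4 members. After scaling for depth the genotypes overlapped at each of them. None of the 12 keratinocyte markers lay in a divergent pair.

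**Figure D4:**
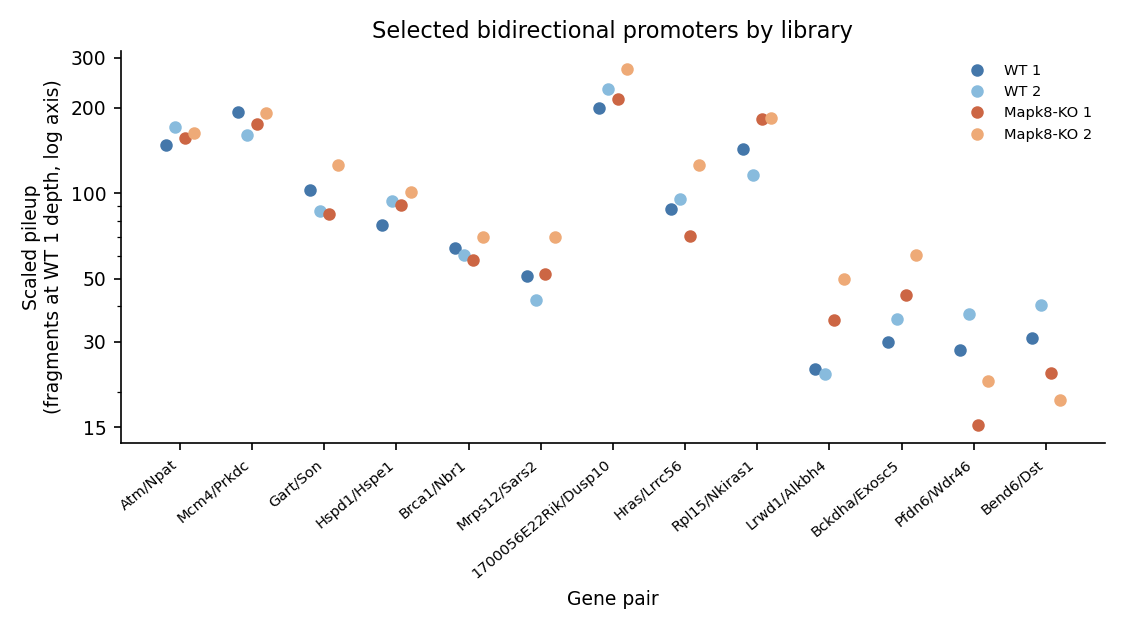
Scaled pileup (fragments at the depth of WT 1, log axis) of 13 bidirectional promoters in each library (points, coloured by library). From Atm/Npat to Hras/Lrrc56 the libraries of the genotypes overlap except at Mrps12/Sars2, while Rpl15/Nkiras1, Lrwd1/Alkbh4 and Bckdha/Exosc5 were higher in both Mapk8-KO libraries and Pfdn6/Wdr46 and Bend6/Dst in both WT libraries.

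Genotypes were compared at the 699 members called in all 4 libraries, and no single member passed the test. limma on the depth-centred log2 pileup, adjusted by the Benjamini-Hochberg method over all 40159 regions called in all 4, called 0 members at an adjusted p under 0.05, against 0.0199% of all regions called higher in Mapk8-KO and 0.214% called higher in WT. The smallest adjusted p among members was 0.182. At an unadjusted p under 0.05 there were 27 members (3.86%, against 10.4% of all regions), 22 higher in Mapk8-KO (background 3.72%) and 5 higher in WT (background 6.72%). The median standard error was 0.20 on the log2 scale. No member differed by more than 2-fold. The count was also 0 in each alternative tried except without Mapk8-KO 1, when 8 of 698 members (1.15%) were called higher in Mapk8-KO and 0 higher in WT, resting on 1 Mapk8-KO library. In that setting 0.912% of all regions were called higher in Mapk8-KO and 3.9% higher in WT. They included Tbc1d10c/Ppp1ca, Abca17/Abca3, Mphosph10/Mcee, Mob3a/Izumo4, Styxl1/Mdh2, Chtf18/Rpusd1 and Lrwd1/Alkbh4, named after their values were seen.

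As a group, the members' median difference between genotypes lay slightly above 0, as did that of other promoters. The median log2 difference, Mapk8-KO minus WT, was 0.12 (quartiles −0.0078 and 0.23) over members, 0.13 over CpG-rich unidirectional promoters and 0.0053 over all regions, and it was above 0 for 513 members (73.4%). It was 0.11 with quantile normalization and 0.057 on fold enrichment. Depth taken from promoter regions brings promoters near 0 by construction, and there it was 0.0056 with 50.9% above 0, while the members' median stayed 0.12 above that of all regions. The median depth-centred log2 pileup of members was 5.85, 5.92, 5.90 and 6.08. Mapk8-KO 2 was the highest and Mapk8-KO 1 lay between the WT libraries. The difference of 0.11 was smaller than the range within Mapk8-KO (two-sided exact permutation p = 0.667), and it was 0.046 without Mapk8-KO 2 and 0.19 without Mapk8-KO 1.

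**Figure D5:**
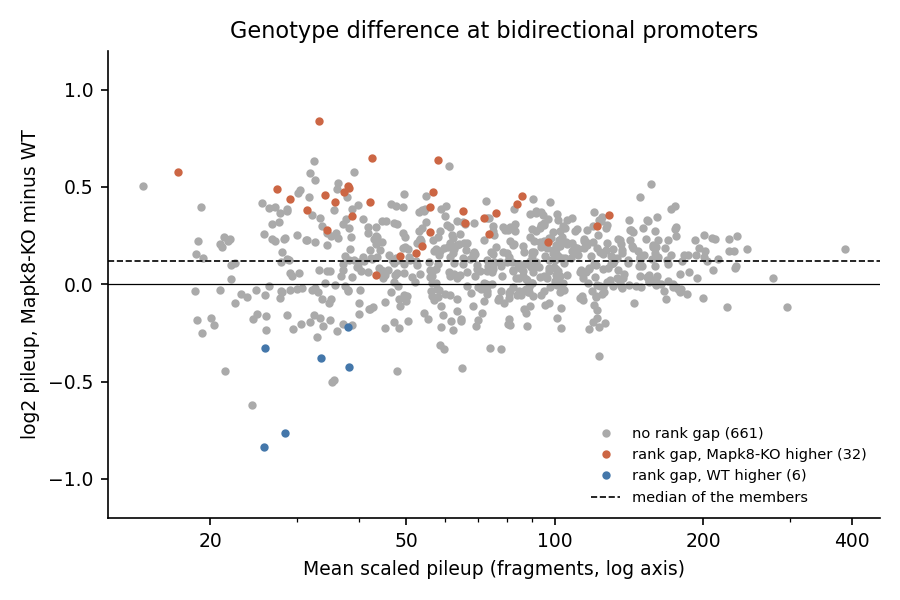
Log2 pileup difference, Mapk8-KO minus WT, against mean scaled pileup in fragments (log axis) for the 699 bidirectional promoters called in all 4 libraries (points), with members past the rank gap in colour and the median of 0.12 as a dashed line. Past the gap lie 32 points towards Mapk8-KO and 6 towards WT, and none is more than 1 log2 unit from 0.

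Ranks within libraries were compared next. A member was past the rank gap when its lowest percentile of fold enrichment in a genotype was at least 10 points above its highest in the other. Of 699 members, 32 (4.58%) were past it towards Mapk8-KO and 6 (0.858%) towards WT, where 4.07% and 4.65% of all regions were. Among CpG-rich unidirectional promoters the shares were 5.02% and 1.22%. The scaled pileups of the genotypes did not overlap for 223 members higher in Mapk8-KO (31.9%) and 43 higher in WT (6.15%). For CpG-rich unidirectional promoters these shares were close to that, 32.7% and 6.46%, and for all regions 20.3% in each direction. Leaving out a library loosens the rank gap, since fewer values have to be separated. Towards Mapk8-KO it was then passed by 75 members without WT 1 (10.8%, against 12.1% of all regions), 112 without WT 2 (15.9% against 11.5%), 116 without Mapk8-KO 1 (16.6% against 16.0%) and 58 without Mapk8-KO 2 (8.19% against 10.0%), on both sides of the background. Towards WT, in the same order, it was passed by 36 (5.16% against 11.8%), 18 (2.55% against 11%), 25 (3.58% against 15.3%) and 27 members (3.81% against 10.0%).

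Towards Mapk8-KO, the largest difference was at Lrwd1/Alkbh4 (chr5:136135645-136136490). Lrwd1 encodes a factor associated with the origin recognition complex and Alkbh4 a demethylase. The member had 24, 16, 40 and 32 fragments. Both Mapk8-KO libraries were above both WT libraries, scaled or not, by 0.84 ± 0.28 (log2, SE; limma adjusted p = 0.211). Bckdha/Exosc5 (chr7:25658555-25659397), a branched-chain amino acid enzyme with an RNA exosome subunit, had 30, 25, 49 and 39 fragments, a difference of 0.65 ± 0.26 (limma adjusted p = 0.327). Tbc1d10c/Ppp1ca, with the catalytic subunit of protein phosphatase 1, had 46, 30, 62 and 56. Tmem176b/Tmem176a, Tti1/Rprd1b and Rbak/Spdye4b followed, with differences of 0.58, 0.51 and 0.49. Rpl15/Nkiras1 had the smallest adjusted p of all members without passing the rank gap, with a difference of 0.51 ± 0.16.

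Towards WT, Pfdn6/Wdr46 (chr17:33940291-33940813) led. Pfdn6 encodes a subunit of the prefoldin chaperone and Wdr46 a nucleolar protein. It had 28, 26, 17 and 14 fragments, with both WT libraries higher, a difference of −0.83 ± 0.30 (limma adjusted p = 0.264). Bend6/Dst (chr1:33907610-33908254) came next at 31, 28, 26 and 12 fragments, a difference of −0.77 ± 0.29 (limma adjusted p = 0.299), with Mapk8-KO 2 lowest. Dst encodes dystonin, a cytoskeletal linker whose epithelial form belongs to hemidesmosomes. The others were Cdca8/9930104L06Rik, with the borealin gene of the chromosomal passenger complex, at 44, 30, 33 and 23 fragments, the zinc finger pairs Zfp169/A830005F24Rik and Zfp668/Zfp646, and Zfp408/Arhgap1, whose scaled pileups overlapped. Members past the gap were picked for it, so their differences are biased upwards.

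The AP-1 motif was found at 19 members, all called in all 4 libraries. Their median difference between genotypes was 0.044 and that of members without the motif 0.12. Bend6/Dst was the only member with the motif past the rank gap. Its match lay 35 bp from the summit, 235 bp from the Bend6 TSS and 174 bp before the Dst TSS. It is shown in capitals in the surrounding stretch at chr1:33908011-33908097, beside the stretches between the TSSs of Bckdha/Exosc5 (chr7:25658982-25659163, capitals CCAAT or ATTGG, with 2 matches) and Lrwd1/Alkbh4 (chr5:136136075-136136153, with neither CCAAT nor ETS matches), the leading members towards Mapk8-KO.
Bend6/Dst: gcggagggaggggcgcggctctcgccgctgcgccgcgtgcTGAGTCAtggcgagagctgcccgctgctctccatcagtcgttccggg
Bckdha/Exosc5: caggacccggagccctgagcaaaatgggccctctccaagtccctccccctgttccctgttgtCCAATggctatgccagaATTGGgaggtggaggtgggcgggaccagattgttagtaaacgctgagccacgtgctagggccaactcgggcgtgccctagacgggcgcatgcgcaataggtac
Lrwd1/Alkbh4: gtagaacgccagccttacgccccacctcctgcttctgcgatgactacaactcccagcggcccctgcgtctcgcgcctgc

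The gene lists showed no member past the test. By limma, 0 members of each functional list had an adjusted p under 0.05, and between 0 and 3 had an unadjusted p under 0.05. The list medians of the log2 difference ran from 0.018 for the histone genes to 0.18 for translation genes, around the 0.12 of all members. Towards Mapk8-KO, which 4.07% of all regions passed, the rank gap was passed by 3 of 49 members of the mitochondrial list, 2 of 37 of DNA replication and repair, 2 of 38 of cell division, 2 of 21 of translation, 2 of 42 of splicing, and 0 of the histone, proteasome, chaperone and signalling lists. Towards WT, which 4.65% of all regions passed, it was passed by 1 of 18 chaperone members, Pfdn6/Wdr46. Counts this small set no list apart from the background.

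Members not called in every library had at most 38 fragments where they were called. The right region of Mrpl41/Pnpla7, with a mitochondrial ribosomal protein gene, had the highest mean scaled pileup among them, with 36 fragments in WT 1, no call in WT 2, and 37 and 34 fragments in the Mapk8-KO libraries. Of these 31, 10 lacked only Mapk8-KO 2, 6 lacked only WT 2 and 1 lacked only WT 1, while 5 were called in WT 1 and Mapk8-KO 1, the deeper libraries. Called in both libraries of a genotype and in neither of the other was 1 member in each direction, where 2.17% of all regions were for WT and 1.65% for Mapk8-KO. Eme2/Mrps34, an endonuclease cofactor gene with a mitochondrial ribosomal protein gene, was called in WT alone, at 15 and 12 fragments. The member between 4921536K21Rik and Dusp18, which encodes a dual-specificity phosphatase, was called in Mapk8-KO alone, at 26 and 11. A missing call can reflect depth as much as closed chromatin, which cannot be told apart in a peak list.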

How the data were processed

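Alignment was to mm10 with Bowtie2, as the study's methods state, after which the authors discarded multi-mapped and low-quality reads and ran MACS2 on every library by itself. Each deposited peak list gives a score, a fold enrichment (the ratio of summit pileup to local background), −log10 p and −log10 q values, and the offset of the summit. No shift of read ends for Tn5 is stated, and peak lists hold no read counts, so DESeq2, which the study applied, was not run.

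The pileup at each summit was solved from the deposited fold and −log10 p values and was whole to within 0.05 fragments for at least 99.996% of peaks in each library. The highest peak of a library in a region gave its value. Depth was centred on the median over the 40159 regions called in all 4 libraries. limma 3.58.1 (R 4.3.3) with a variance trend was fitted to log2 pileups of all of these, with Benjamini-Hochberg adjustment. Values per library were compared by exact permutation over 6 assignments of the labels. The steps were tested on simulated data. Motifs were searched in RefSeq GRCm38.p6 around the strongest summit, and TSSs came from the basic set of GENCODE.

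Named members were the textbook pairs, the 6 in each direction with the largest difference past the rank gap, those with an AP-1 motif past it, the 3 highest and lowest, those called in a single genotype, the 8 closest pairs with no peak, those of signalling genes and up to 3 per functional list. The members, lists and rules were chosen with earlier results of these data known. Alternatives varied pair definition, peak threshold, list length, scaling, measure, rank gap, motif window, the replicate block and each library left out. Some members are not reported here by name.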

Additional observations from a re-analysis of the deposited data

How the results depend on the processing

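The number of members stayed between 645 and 921 under the pair definitions, extensions, thresholds and left-out libraries tried, and between 728 and 731 without each library. The genotype difference in the share of pairs open, 0.129 points, was 1.54 with lists cut to equal length, 0 with no extension, and ran from −0.514 (without Mapk8-KO 1) to 0.835 (without Mapk8-KO 2) when a library was left out, with −0.45 without WT 2. The difference in the members' median log2 pileup was −0.0090 with depth from promoter regions and from 0.046 to 0.19 without each library. The excess over CpG-rich unidirectional promoters differed between genotypes by −0.068 to 0.0058 without each library and by 0.0010 against all unidirectional promoters. Widths differed by −70.25 to 52.5 bp without each library, with 44 bp without Mapk8-KO 2. limma called 0 to 8 members higher in Mapk8-KO and 0 higher in WT when a library was left out. The rank gap was passed towards Mapk8-KO by 65 members at 5 points (9.30%, all regions 8.61%), 4 at 20 points (0.572%, all regions 0.777%) and 58 to 116 without a library, and towards WT by 16 (2.29%, all regions 8.66%), 2 (0.286%, all regions 1.23%) and 18 to 36. Of all regions, between 10.0% and 16.0% passed it in either direction without a library. The cause was not tested, other than that fewer libraries or a smaller gap loosen the rule. The median distance of the summit from the midpoint, averaged over libraries, was 69.4 bp and became 60.8 bp with TSSs at most 500 bp apart.

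A window of 50 bp has fewer motifs by construction, at 2.47% of members for NRF1, 13.3% for ETS, 27.9% for CCAAT, 0.685% for YY1, 1.78% for CREB, 15.2% for the GC box, 1.37% for AP-1, 0.411% for the TATA box and 1.51% for ZBTB33. At 250 bp the shares that left the interval of the 150 bp value were 35.2% for ETS, 53.7% for CCAAT, 10.5% for YY1, 42.9% for the GC box and 5.62% for the TATA box.

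After depth was centred, deviations from the genotype means correlated at 0.0195 over members between samples of equal replicate number. Depth itself went with the number, since replicate 2 was the shallower library of each genotype. Whether samples of equal number shared a batch was not tested. With the replicate block, limma called 0 members, and 52 members passed the rank gap towards Mapk8-KO (7.44%, all regions 7.18%) and 11 towards WT (1.57%, all regions 7.53%) in both pairs. The differences in share, pileup and excess stayed at 0.129, 0.11 and −0.024 by construction, since pairing does not alter a difference of means. Among 119 alternatives over 19 results, 31 moved the value or count beyond the spread or past 1.5 times and 7 turned the direction. The other 81 did neither, which for differences with a test does not mean that the size was kept. The block's differences in share, pileup and excess are among these 81, although they could not move. A peak list hides regions under the caller's threshold, and 2 libraries per genotype allow no exact p under 0.33.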
